A study of Homo sapiens with 15 samples.

Results

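The genes described here are 10 textbook targets of the transcriptional regulators YAP and SRF, taken by symbol from a table of 37787 genes measured in human granulosa cells. They were chosen with earlier results of these data known, so the counts of called members are not independent evidence. CCN1, CCN2, ANKRD1 and AMOTL2 stand for YAP, and TAGLN, ACTA2, CNN1, TPM1, MYL9 and CALD1 stand for SRF. The cells were HGrC1, an immortalized line of human granulosa cells without the tumour mutation in FOXL2, at passage 14. RNA-seq was run on 15 libraries, 3 replicates (A, B and C) of each of 5 conditions, and the question of the study was how the granulosa cell tumour mutation FOXL2 C134W changes the transcriptome next to wild-type FOXL2. Vectors libraries came from cells given empty plasmids. FOXL2WT libraries came from cells given wild-type FOXL2 together with SMAD3, and FOXL2C134W libraries from cells given the mutant together with SMAD3. In FOXL2WT + FOXO1 and FOXL2C134W + FOXO1 libraries the cells also received FOXO1-3A, a constitutively active form of FOXO1 that stays in the nucleus. No condition had FOXL2 without SMAD3 or SMAD3 without FOXL2, so that against Vectors the effects of FOXL2 and SMAD3 cannot be told apart. All plasmids were given by lipofection for 4 h, followed by 24 h in medium without serum, and expression was transient, on top of the line's own FOXL2.

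YAP and its paralog TAZ are co-activators that the Hippo kinases keep out of the nucleus. When they enter it, on a stiff substrate, at low density or after release from the kinases, they work through TEAD proteins bound to DNA, and CCN1, CCN2, ANKRD1 and AMOTL2 are among their standard readouts. SRF binds the CArG box and, with the actin-sensing co-activators MRTFA and MRTFB, drives genes of the actin cytoskeleton and of contractile cells. In the ovary, Hippo signalling is known for its part in follicle growth, and the CCN proteins are made by granulosa cells.

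Before the values, 4 promoters are shown because they are the windows at the start site of the member's most abundant transcript that hold the TEAD core letters, GGAATG. RefSeq promoter windows of 300 bases on GRCh38.p14, from 250 bases before to 50 after a start site, were at hand for 7 of the 10 members, 12 windows in all, and CCN1, TAGLN and MYL9 had none. The letters were searched on both strands, and the capitals mark each match, written CATTCC where it lies on the other strand. The 250 bases before the start of CCN2 (chr6:131951373-131951622), ANKRD1 (chr10:90921088-90921337), AMOTL2 (chr3:134374448-134374697) and ACTA2 (chr10:88952774-88953023) are all from genes on the minus strand and are written in the direction of transcription.
CCN2: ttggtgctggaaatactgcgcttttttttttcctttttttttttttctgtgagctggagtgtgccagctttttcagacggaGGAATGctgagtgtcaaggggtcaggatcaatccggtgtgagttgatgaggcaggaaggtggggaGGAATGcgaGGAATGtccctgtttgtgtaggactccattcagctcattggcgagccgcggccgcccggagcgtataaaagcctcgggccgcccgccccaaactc
ANKRD1: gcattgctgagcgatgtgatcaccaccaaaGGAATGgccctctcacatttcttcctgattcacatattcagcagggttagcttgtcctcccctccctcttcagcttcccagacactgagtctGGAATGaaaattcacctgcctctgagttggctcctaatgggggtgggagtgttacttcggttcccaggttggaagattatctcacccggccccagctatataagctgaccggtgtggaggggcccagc
AMOTL2: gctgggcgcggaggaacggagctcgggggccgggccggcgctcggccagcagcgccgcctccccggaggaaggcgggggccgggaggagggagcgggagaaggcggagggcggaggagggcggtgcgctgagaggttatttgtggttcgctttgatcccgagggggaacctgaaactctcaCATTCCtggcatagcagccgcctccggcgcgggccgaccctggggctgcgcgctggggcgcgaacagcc
ACTA2: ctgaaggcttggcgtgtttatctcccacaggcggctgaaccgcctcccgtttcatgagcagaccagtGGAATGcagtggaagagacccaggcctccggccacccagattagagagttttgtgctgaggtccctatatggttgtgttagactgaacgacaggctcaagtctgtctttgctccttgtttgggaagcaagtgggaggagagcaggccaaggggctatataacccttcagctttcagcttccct

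CCN2 held 3 matches, at positions -169, -104 and -95 from the start site, and 0.128% of all 35116 windows held 3 or more. ANKRD1 held 2, at -220 and -128, where 1.37% of all windows held 2 or more. AMOTL2 had 1 match at -69 and ACTA2 had 1 at -183, and 14% of all windows had at least 1. In total 6 of the 12 member windows had the letters. Only 5 of the 12 lay at the start of the member's most abundant transcript, and 4 of these 5 had the letters. The other windows lay 44 to 111780 bases from that start. The SMAD letters CAGAC were in 11 of 12 member windows and in 45.3% of all windows, and the forkhead letters GTAAACA were in 2 of 12, both among the windows of ACTA2 and CALD1, and in 3.42% of all. Of the 5 windows at the start of the most abundant transcript, 4 held the SMAD letters and 0 the forkhead letters. No member window held a CArG box in its strict form, CC, 6 letters A or T and GG, which 1.29% of all windows held. Forms that differ from it by 1 base were not counted, and the ACTA2 stretch above holds such forms, ccctatatgg and ccttgtttgg. The count says only that the strict letters were not in these windows. A match is a description of the sequence and not a site of binding.

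Library totals ran from 14962245 to 25339094 counts. All 10 members passed the filter on low counts, as did 13868 genes in all, and the lowest member count in any library was 442, for ACTA2, while the other members had 1492 to 52920 counts. Levels are given below as CPM, the counts of a gene per 1000000 counts of the library total after TMM scaling. Differences are log2 fold changes from one edgeR quasi-likelihood fit over the 15 libraries, and a gene is called where its Benjamini-Hochberg adjusted p over all genes tested is under 0.05. Nothing in the labels says that replicates were separate cultures or transfections, so the p-values measure the spread between these samples, which may be technical. The transfected genes went with the labels. FOXL2 averaged 8.73 CPM in Vectors, 561 in FOXL2WT, 147 in FOXL2C134W, 384 in FOXL2WT + FOXO1 and 152 in FOXL2C134W + FOXO1. SMAD3 averaged 249, 2768, 843, 969 and 392 CPM in the same order, so that the mutant and wild-type conditions differed in SMAD3 by -1.72 on the log2 scale as well as in FOXL2 by -1.93. FOXO1 averaged 117 and 43.2 CPM where it was added and at most 13.2 CPM on average elsewhere. These are levels of RNA. For protein, the study reports balanced amounts of both FOXL2 forms and of FOXO1 by immunoblot of parallel cultures. The part of the unequal RNA levels in the results below was not tested.

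As a check of the label, granulosa markers other than FOXL2 summed to 186 to 218 CPM over the 15 libraries. Most of this sum was GATA4, at 129 to 154 CPM, and WT1, at 38.8 to 47.7 CPM. The FSH receptor gene FSHR and the steroid enzyme gene HSD3B2 had at most 3 counts in every library. INHA and the aromatase gene CYP19A1 had at most 4, and AMHR2 at most 7. AMH, STAR and CYP11A1 were at 3.84 CPM or less. Smooth muscle and pericyte markers, the cells in which the SRF members are best known, summed to 213 to 227 CPM in Vectors and to 167 to 204 CPM in the other 12 libraries, with MYOCD at 3 counts or fewer in every library. The largest part was RGS5, at 64.3 to 109 CPM, and MYH11 had 9 counts or fewer. SMTN averaged 28.3 CPM in Vectors, 26.9 in FOXL2WT, 35.8 in FOXL2C134W, 28.2 in FOXL2WT + FOXO1 and 32.1 in FOXL2C134W + FOXO1. DES and SMTN are also in the list of cytoskeletal SRF targets below. Fibroblast and theca markers were also highest in Vectors, at 1703 to 1794 CPM against 1203 to 1497 CPM, but COL1A1 and COL3A1 made up nearly all of this sum, with DCN and LUM at 6 counts or fewer in every library. The epithelial list, lowest in Vectors at 1160.3 to 1368 CPM against 1503 to 1984 CPM, was in effect the keratin gene KRT7, at 1154 to 1976 CPM, beside EPCAM at 4.78 to 7.72 CPM and CDH1 at 0.523 CPM or less. The leukocyte list, at 90.6 to 118 CPM and highest in Vectors, was in effect CD68, at 88.7 to 117 CPM, with PTPRC at 5 counts or fewer. Endothelial markers, at 13.1 to 22.5 CPM, were highest in Vectors as well. In bulk RNA, fewer cells of a type and less RNA per cell cannot be told apart. The part of these shifts in the results was not tested.

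All 10 members had their lowest mean in Vectors, as did 24.2% of all genes tested. In 7 of them, CCN1, CCN2, ANKRD1, AMOTL2, TAGLN, TPM1 and MYL9, each of the 12 libraries with FOXL2 and SMAD3 lay above each of the 3 Vectors libraries, against 3.14% of all genes tested. The Vectors A library was the lowest of the 15 for 9 of the 10 members, all but CALD1, against 10.1% of genes, so the counts of called genes against Vectors are also given without it. Vectors A was not the highest Vectors library for any member, and the members whose replicates lay wholly above Vectors are the same without it. With FOXL2 and SMAD3 present the levels lay close together, and the highest of the 4 condition means was 1.07 to 1.23 times the lowest over the 10 members.

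**Figure D1:**
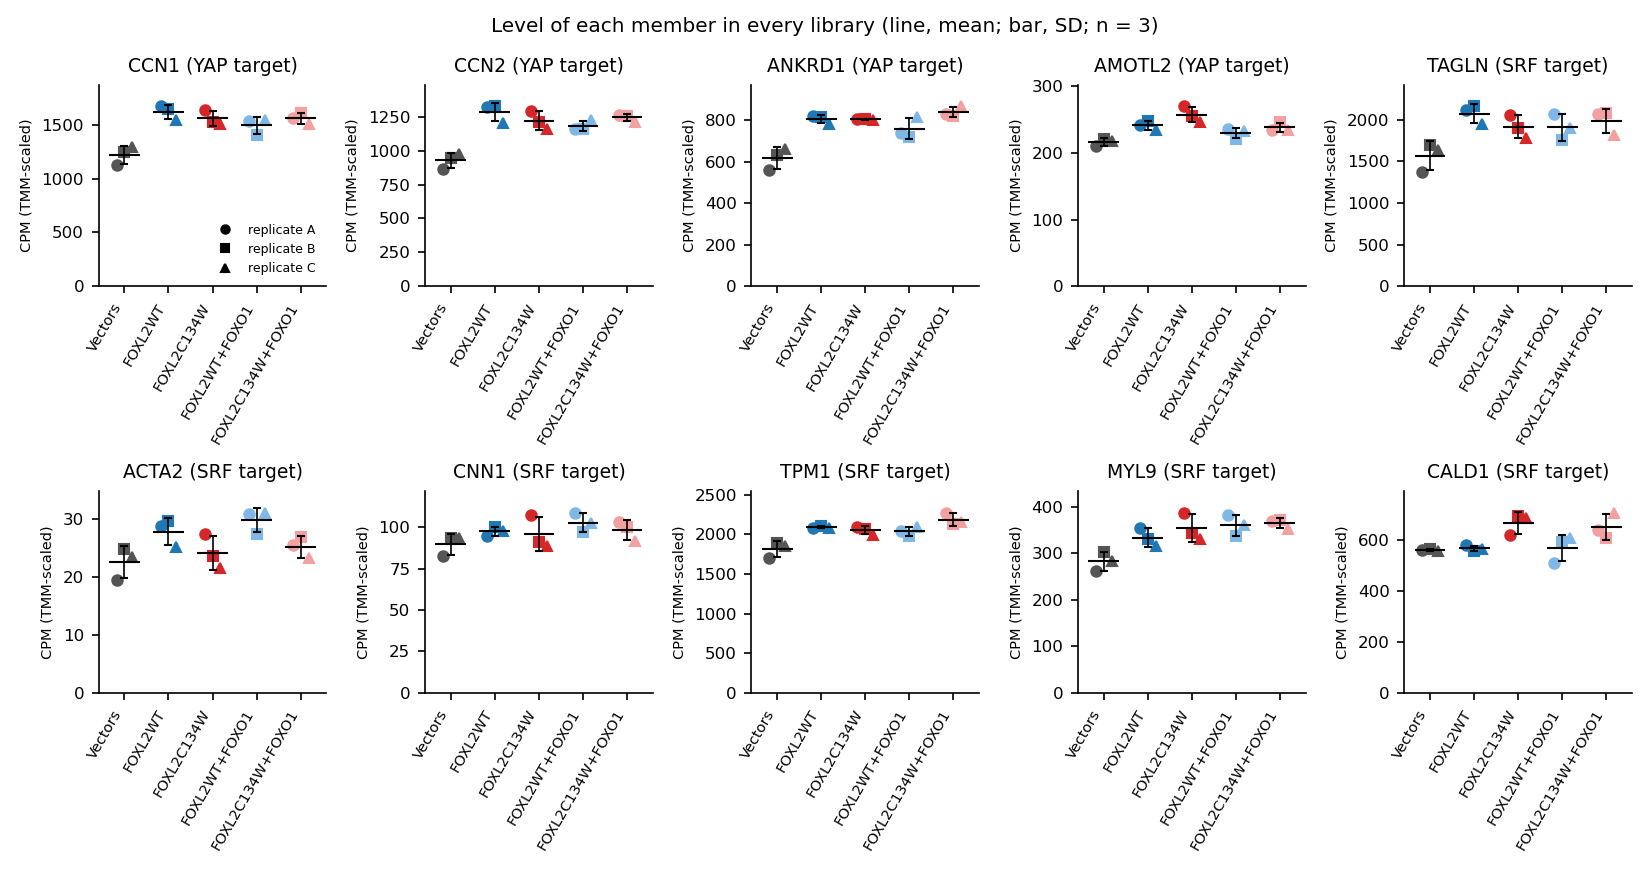
Level of each member in CPM, on a linear axis from 0, in the 3 libraries (points; the shape gives the replicate) of the 5 conditions, with the mean as a line and the SD as a bar. In 7 of the 10 panels the 3 Vectors points lie below all the others, while CALD1 differs, being higher in both FOXL2C134W conditions.

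CCN1 encodes a secreted matricellular protein that binds integrins (chr1:85580761-85584589, plus strand, GRCh38). It was at 1121, 1243 and 1289 CPM in Vectors replicates A, B and C. In FOXL2WT it was at 1671, 1643 and 1546 CPM, and in FOXL2C134W at 1639, 1528 and 1509 CPM. With FOXO1 it was at 1537, 1401 and 1540.0 CPM beside FOXL2WT and at 1559.7, 1607 and 1506 CPM beside FOXL2C134W. The Vectors libraries did not overlap with any other, and the mutant and wild-type libraries overlapped. The log2 fold change against Vectors was 0.41 (SE 0.052, edgeR adjusted p = 8.74e-05) in FOXL2WT and 0.36 (SE 0.052, adjusted p = 0.00015) in FOXL2C134W, a rise of 1.33-fold and 1.28-fold.

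CCN2, the related connective tissue growth factor (chr6:131948176-131951372, minus strand), carries the 3 TEAD matches printed above and rose most of the 10 members in FOXL2WT. Its Vectors libraries were at 864, 946 and 971 CPM. FOXL2WT libraries were at 1319, 1327 and 1206 CPM, and FOXL2C134W libraries at 1292, 1213 and 1156 CPM. Beside FOXO1 the values were 1159.6, 1159.7 and 1226 CPM with FOXL2WT and 1264, 1256 and 1213 CPM with FOXL2C134W. Again all 12 libraries were above the 3 from Vectors. Against Vectors, the log2 fold change of CCN2 was 0.47 (SE 0.050, adjusted p = 1.84e-05) in FOXL2WT and 0.40 (SE 0.050, adjusted p = 3.52e-05) in FOXL2C134W, or 1.38-fold and 1.32-fold.

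ANKRD1, an ankyrin repeat protein of the nucleus and the sarcomere (chr10:90912096-90921087, minus strand), was at 561, 635 and 664 CPM in Vectors. It reached 819, 816 and 785 CPM in FOXL2WT and 807, 808 and 802 CPM in FOXL2C134W, whose means were 807 and 806 CPM. With FOXO1 added it was at 740.0, 722 and 818 CPM beside FOXL2WT and at 833, 823 and 869 CPM beside FOXL2C134W. Vectors again stood below the rest, and the 3 FOXL2C134W + FOXO1 libraries were the highest of the 15. Both FOXL2 conditions had a log2 fold change of 0.38 against Vectors (SE 0.053), with an edgeR adjusted p of 0.000234 in FOXL2WT and 0.000102 in FOXL2C134W.

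AMOTL2, an angiomotin-like protein that binds YAP and holds it back (chr3:134355347-134375479, minus strand), moved less. Vectors libraries were at 210.0, 221 and 218 CPM, FOXL2WT libraries at 242, 248 and 235 CPM, and FOXL2C134W libraries at 270.0, 256 and 246 CPM. With FOXO1 the levels were 236, 221 and 232 CPM beside FOXL2WT and 234, 246 and 235 CPM beside FOXL2C134W. The lowest FOXL2WT + FOXO1 library came within 1 CPM of the highest Vectors library. The log2 fold change was 0.16 (SE 0.042, adjusted p = 0.0306) in FOXL2WT, a call that was lost, at adjusted p values of 0.0521 to 0.159, when any one Vectors library, FOXL2WT A or FOXL2WT B was left out, and 0.25 (SE 0.042, adjusted p = 0.000463) in FOXL2C134W.

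Of the SRF members, TAGLN, which encodes the actin-binding protein transgelin (chr11:117199370-117207464, plus strand), rose most in FOXL2WT and had the widest spread in CPM between replicates. It was at 1370.5, 1697 and 1632 CPM in Vectors. The FOXL2WT values were 2112, 2163 and 1949 CPM and the FOXL2C134W values 2060.3, 1900.0 and 1786 CPM. Those with FOXO1 were 2072, 1754 and 1904 CPM beside FOXL2WT and 2067, 2078 and 1821 CPM beside FOXL2C134W. Vectors did not overlap with the other conditions, which overlapped among themselves. For TAGLN the log2 fold change was 0.41 (SE 0.076, adjusted p = 0.00354) in FOXL2WT and 0.29 (SE 0.076, adjusted p = 0.0144) in FOXL2C134W. Without Vectors A the latter was 0.21 and its adjusted p was 0.0724.

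TPM1, a tropomyosin that lies along the actin filament (chr15:63042620-63071915, plus strand), was at 1706, 1886 and 1857 CPM in Vectors. It was at 2082, 2100.5 and 2083 CPM in FOXL2WT and at 2094, 2069.9 and 1996 CPM in FOXL2C134W. Added FOXO1 gave 2041, 1977 and 2093 CPM beside FOXL2WT and 2274, 2128 and 2156 CPM beside FOXL2C134W. All 12 libraries with FOXL2 lay above Vectors. TPM1 had a log2 fold change of 0.20 (SE 0.039, adjusted p = 0.00449) in FOXL2WT and 0.18 (SE 0.039, adjusted p = 0.00489) in FOXL2C134W, and both calls were lost in DESeq2 with transcript length offsets.

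MYL9, a regulatory light chain of non-muscle and smooth muscle myosin (chr20:36541497-36551447, plus strand), was at 262, 304 and 284 CPM in Vectors. In FOXL2WT it was at 355, 332 and 315 CPM and in FOXL2C134W at 388, 345 and 332 CPM. With FOXO1 it was at 383, 337 and 362 CPM beside FOXL2WT and at 371, 372 and 353 CPM beside FOXL2C134W. No library with FOXL2 came down to the Vectors range. The log2 fold change was 0.24 (SE 0.064, adjusted p = 0.0327) in FOXL2WT and 0.33 (SE 0.063, adjusted p = 0.00182) in FOXL2C134W. The FOXL2WT call was lost without Vectors A, Vectors C, FOXL2WT A or FOXL2WT B, at adjusted p values of 0.0832 to 0.193, and in DESeq2 with transcript length offsets, at 0.0560.

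ACTA2, the smooth muscle alpha-actin (chr10:88935074-88991339, minus strand), was the lowest of the 10 members. It was at 19.5, 24.8 and 23.4 CPM in Vectors, 28.9, 29.7 and 25.2 CPM in FOXL2WT, and 27.5, 23.7 and 21.7 CPM in FOXL2C134W. With FOXO1 it was at 31.0, 27.5 and 31.2 CPM beside FOXL2WT and at 25.6, 27.0 and 23.3 CPM beside FOXL2C134W. Its FOXL2WT libraries did not overlap with Vectors and its FOXL2C134W libraries did. Neither difference was called, at a log2 fold change of 0.30 (SE 0.10, adjusted p = 0.0865) and 0.11 (SE 0.10, adjusted p = 0.532). The FOXL2WT difference was called in 2 of the 10 alternatives. These kept genes with as little as 1 count or fitted only the libraries compared. The genes called in all were then 1345 and 1690, beside 842 in the main fit. The FOXL2WT + FOXO1 difference from Vectors was called, at 0.40 (SE 0.10, adjusted p = 0.0276), but not without Vectors A or C or FOXL2WT + FOXO1 A or C, at adjusted p values of 0.0610 to 0.173.

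CNN1, the actin- and myosin-binding calponin 1 (chr19:11538767-11550323, plus strand), passed the test in none of the 9 comparisons, but was called higher in FOXL2WT + FOXO1 than in Vectors when genes with as little as 1 count were kept. The genes called in all then rose from 524 to 954. CNN1 was at 82.4, 93.2 and 93.5 CPM in Vectors, 94.6, 100.1 and 97.5 CPM in FOXL2WT and 108, 91.1 and 88.5 CPM in FOXL2C134W. With FOXO1 it was at 109, 97.2 and 102 CPM beside FOXL2WT and at 103, 100.3 and 91.5 CPM beside FOXL2C134W. Against Vectors, the log2 fold change was 0.12 (SE 0.070, adjusted p = 0.362) in FOXL2WT and 0.10 (SE 0.070, adjusted p = 0.414) in FOXL2C134W.

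CALD1, the actin- and calmodulin-binding caldesmon (chr7:134744252-134970729, plus strand), had another pattern. It was at 562, 564 and 558 CPM in Vectors and at 579, 559 and 565 CPM in FOXL2WT. The FOXL2C134W libraries were at 620.1, 697 and 686 CPM, above all 6 of these. With FOXO1 the values were 509, 592 and 607 CPM beside FOXL2WT and 638, 609 and 708 CPM beside FOXL2C134W. The log2 fold change against Vectors was 0.02 (SE 0.061, adjusted p = 0.919) in FOXL2WT and 0.25 (SE 0.061, adjusted p = 0.00936) in FOXL2C134W.

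In FOXL2WT against Vectors, 7 of the 10 members were higher by edgeR's quasi-likelihood test and 0 were lower, where 2.46% of all genes tested were higher and 3.61% lower. ACTA2, CNN1 and CALD1 did not pass. Replicates did not overlap for 9 of 10, all but CALD1, beside 15.2% of all genes. The median log2 fold change was 0.27 over the members, 0.40 over the 4 YAP members and 0.22 over the 6 SRF members, beside 0.00 over all genes tested. Without Vectors A, 5 members were called, and 305 genes in all, beside 842 with it.

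FOXL2C134W against Vectors gave 8 higher members and 0 lower, where 7.48% of all genes tested were higher and 7.24% lower. ACTA2 and CNN1 did not pass. Replicates of 8 members did not overlap, beside 15.7% of all genes, and the median log2 fold change was again 0.27, with 0.37 over the YAP members and 0.21 over the SRF members. Leaving out Vectors A left 7 called, and 1588 genes in all, beside 2041 with it. The comparisons with Vectors share their 3 control libraries and are not independent of each other.

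Between FOXL2C134W and FOXL2WT, CALD1 alone of the 10 members was called, higher in the mutant, where 7.13% of all genes tested were higher and 4.12% lower. Its log2 fold change was 0.23 (SE 0.061, edgeR adjusted p = 0.0183), or 1.18-fold, and its replicates did not overlap, as in 14.8% of all genes. The call was lost when FOXL2WT B, FOXL2WT C, FOXL2C134W B or FOXL2C134W C was left out, at adjusted p values of 0.0504 to 0.0854, and in DESeq2 with transcript length offsets, at 0.106. The other 9 members had log2 fold changes of -0.19 to 0.09 with adjusted p values of 0.167 or more. AMOTL2 at 0.09 (SE 0.042) had the smallest of these and ACTA2 at -0.19 (SE 0.10) had the largest difference, and the replicates of all 9 overlapped. The median over the members was -0.02, beside -0.01 over all genes.

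**Figure D2:**
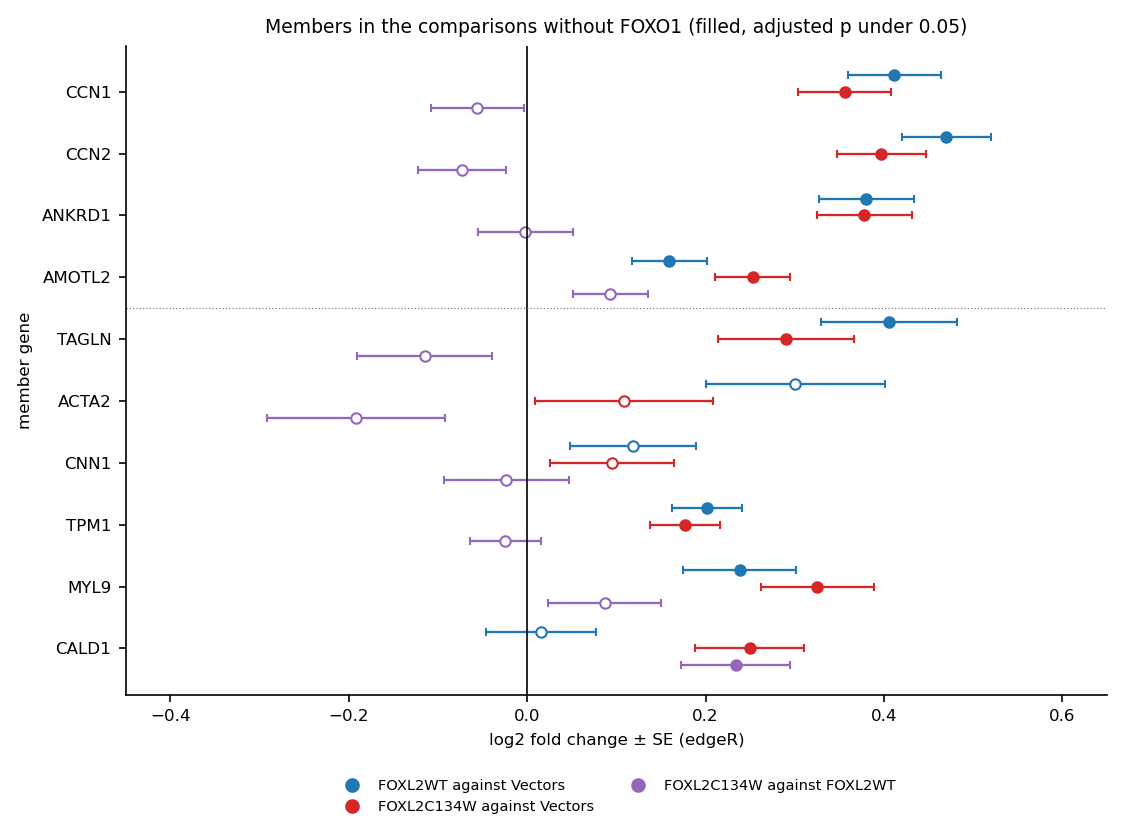
Log2 fold change of each member with its SE (bar) in 3 comparisons without FOXO1, from the edgeR fit; filled points have an adjusted p under 0.05. The points against Vectors lie right of 0 for all 10 members, and of the FOXL2C134W against FOXL2WT points CALD1 alone is filled, at 0.23.

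The conditions with FOXO1 were also set against Vectors, comparisons that were added after the values had been seen. FOXL2WT + FOXO1 had 7 members higher, all but AMOTL2, CNN1 and CALD1, where 1.41% of all genes tested were higher. CCN2 had a log2 fold change of 0.35 (SE 0.050, adjusted p = 0.00044), MYL9 0.35 (SE 0.064, adjusted p = 0.00375) and TAGLN 0.29 (SE 0.076, adjusted p = 0.0426). This count fell to 4 when Vectors A, FOXL2WT + FOXO1 A or FOXL2WT + FOXO1 C was left out, each time without TAGLN, ACTA2 and TPM1. The genes called in all were then 215, 352 and 305, beside 524 with all libraries. In DESeq2 with transcript length offsets the member count was 5, with TAGLN at 0.14 (adjusted p = 0.374) and TPM1 at 0.039 (adjusted p = 0.919). FOXL2C134W + FOXO1 had 8 members higher, all but ACTA2 and CNN1, where 4.17% of all genes were higher. It had 6 without any one Vectors library, FOXL2C134W + FOXO1 A or FOXL2C134W + FOXO1 C, each time without AMOTL2 and CALD1. The genes called in all were then 764 to 938, beside 1294 with all libraries. ANKRD1 led with 0.44 (SE 0.053, adjusted p = 3.41e-05), followed by CCN2 with 0.42 (SE 0.050, adjusted p = 2.81e-05) and MYL9 with 0.37 (SE 0.063, adjusted p = 0.000949).

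Adding FOXO1 changed no member past the threshold. The conditions with FOXO1 also differed from those without it in SMAD3, by -1.51 on the log2 scale beside FOXL2WT and -1.11 beside FOXL2C134W. FOXL2 differed by -0.55 beside FOXL2WT and by 0.05 beside FOXL2C134W. In these comparisons the effects of FOXO1 and of the SMAD3 and FOXL2 levels cannot be told apart. In FOXL2WT + FOXO1 against FOXL2WT, 0 of the 10 members were called by edgeR, beside 0.0505% of all genes tested, and DESeq2 with and without length offsets also called 0. The log2 fold changes ran from -0.12 to 0.11, the lowest adjusted p was 0.492, and 2 members, CCN1 and CCN2, had an unadjusted p under 0.05. The share of all genes with an unadjusted p under 0.05 was not counted, here or in the comparisons below. Counts under that rule are therefore a description only. All 4 YAP members were lower in the means, CCN1 at -0.12 (SE 0.052) and CCN2 at -0.12 (SE 0.050), and CCN1 replicates did not overlap, as for 7.56% of all genes.

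In FOXL2C134W + FOXO1 against FOXL2C134W, 0 members were called by edgeR and by DESeq2 with and without length offsets, beside 0.714% of all genes. The values ran from -0.11 for AMOTL2 (SE 0.042, adjusted p = 0.277) to 0.09 for TPM1 (SE 0.039, adjusted p = 0.389), and these 2 members had an unadjusted p under 0.05. Replicates did not overlap for AMOTL2, which was lower, beside 7.72% of all genes, and for ANKRD1 and TPM1, which were higher, beside 6.23%.

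With FOXO1 in both arms, the mutant condition still differed from the wild type in the RNA of FOXO1, by -1.44 on the log2 scale. SMAD3 differed by -1.31 and FOXL2 by -1.33, and the effects of the mutation and of these levels cannot be told apart. FOXL2C134W + FOXO1 against FOXL2WT + FOXO1 had 0 members called by edgeR and by DESeq2 with and without length offsets, beside 0.144% of all genes, and 4 with an unadjusted p under 0.05. CALD1 had a log2 difference of 0.19 (SE 0.061, adjusted p = 0.215), near its 0.23 without FOXO1, and ACTA2 one of -0.24 (SE 0.099, adjusted p = 0.307). ANKRD1 at 0.15 (SE 0.053, adjusted p = 0.253) and TPM1 at 0.10 (SE 0.039, adjusted p = 0.276) were the other 2. Replicates did not overlap for CALD1, ANKRD1 and TPM1, higher in the mutant, beside 7.36% of all genes, and for ACTA2, lower in it, beside 7.79%. When genes with as little as 1 count were kept, ANKRD1 and CALD1 were called, but the genes called in all then rose from 20 to 446.

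The test of whether FOXO1 acted differently beside the mutant and the wild type, an interaction term, also called 0 members by edgeR and by DESeq2 with and without length offsets, beside 1.38% of all genes. The difference of the FOXO1 effects ran from -0.07 for MYL9 to 0.17 for TAGLN (SE 0.11, adjusted p = 0.559), and TPM1 at 0.13 (SE 0.056, adjusted p = 0.351) was the 1 member with an unadjusted p under 0.05. The transfected genes themselves were called in this test, SMAD3 at 0.41, FOXL2 at 0.60 and FOXO1 at -1.41. A different action of FOXO1 and these unequal levels cannot be told apart in it.

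**Figure D3:**
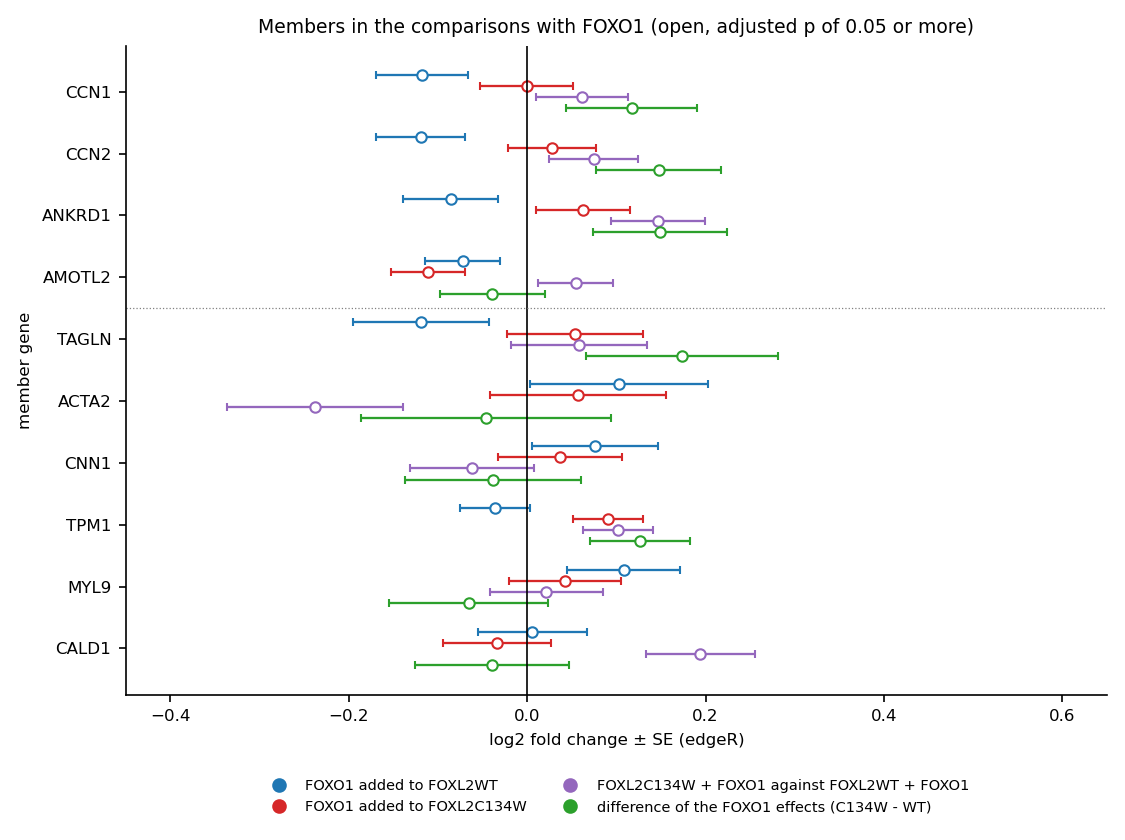
Log2 fold change of each member with its SE (bar) for FOXO1 added to FOXL2WT or FOXL2C134W, for the mutant against the wild type with FOXO1 in both, and for the difference of the FOXO1 effects. Every point is open, with an adjusted p of 0.05 or more, and all lie between -0.24 and 0.19.

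SMAD3 differed between conditions, and the levels of CCN2 and TAGLN are set beside it here. SMAD3 means ran from 249 CPM in Vectors to 2768 CPM in FOXL2WT, where CCN2 means were 927 and 1284 CPM and TAGLN means 1567 and 2075 CPM. Among the 4 conditions given SMAD3, its lowest mean was 392 CPM in FOXL2C134W + FOXO1, where CCN2 averaged 1244 CPM and TAGLN 1988 CPM. These values are a description of 5 conditions that also differ in FOXL2 and FOXO1. The part of the SMAD3 level in them was not tested.

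**Figure D4:**
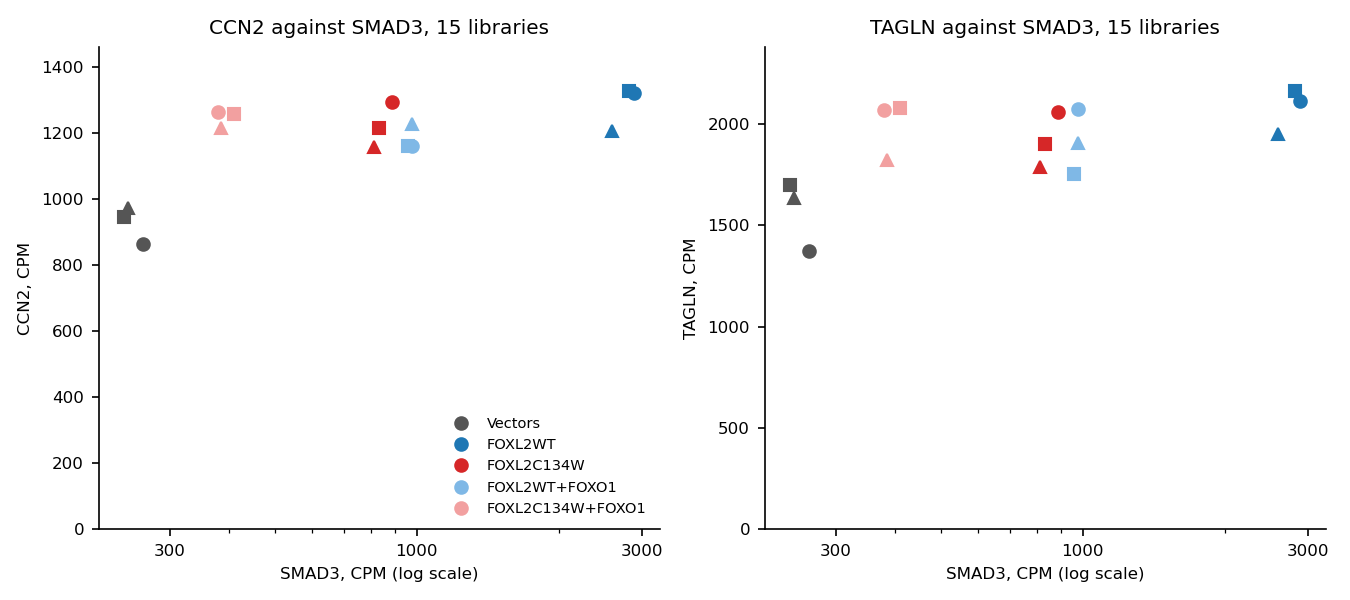
CCN2 (left) and TAGLN (right) in CPM against SMAD3 in CPM on a log axis, 1 point for each of the 15 libraries, coloured by condition and shaped by replicate. The Vectors libraries lie lowest in both panels, and the other 12 lie in a band of 1156 to 1327 CPM for CCN2 and 1754 to 2163 CPM for TAGLN.

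Levels between genes were compared per length, in TPM from the transcript tables. The medians over 15 libraries were 4098 TPM for TAGLN, 3244 for TPM1, 893 for CCN1, 676 for CCN2, 544 for ANKRD1, 408 for MYL9, 202 for CALD1, 124 for CNN1, 67.2 for AMOTL2 and 31.3 for ACTA2. For TAGLN, TPM1 and CNN1, 56.0%, 55.5% and 38.4% of the TPM was assigned to annotated transcripts under 600 bases, which raises their values next to a count over the full-length form. CCN2 and ANKRD1 have only 1 annotated transcript each, so their share of 100% is fixed by the annotation. For CCN1, with 2 transcripts, 1 of them held 98.9%. CALD1-202 held 74.7% of CALD1, and 80.7% ± 2.0 (SD, n = 3) in Vectors. The most abundant transcripts of TAGLN and TPM1 held 41.6% and 37.1%. Reads shared between paralogs, as among the tropomyosins and the actins, were divided by the authors' quantification, which adds uncertainty to TPM1 and ACTA2.

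Over the 15 libraries, the members most like CCN2 in log2-CPM were CCN1, with a Pearson r of 0.980, and ANKRD1, with 0.940, and the least like was CALD1, with 0.313. Outside the members, AIF1L (0.975), ENC1 (0.970) and GARS1 (0.965) were the closest to CCN2. The closest to TAGLN were ACTG1 (0.959), KRT7 (0.957) and TUFT1 (0.951), beside CCN1 at 0.945 and CALD1 at 0.035. These values describe 15 libraries that share 5 conditions and in which Vectors stand below the rest.

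Other genes of the pathways were counted in lists from textbook knowledge, none of which holds a member. Like the members, the lists were chosen with earlier results of these data known. LATS2 is in the lists of YAP and TAZ targets and of Hippo regulators, and SRF in those of immediate early targets and of SRF regulators. The study itself names TGFB2, ZYX, FLNA, MYH9 and EGR1 from these samples, so the counts that hold them are not independent evidence. The counts stand beside the shares of all genes given above, which were 2.46% higher and 3.61% lower in FOXL2WT against Vectors, 7.48% and 7.24% in FOXL2C134W against Vectors, and 7.13% and 4.12% in FOXL2C134W against FOXL2WT. Of 17 further YAP and TAZ targets tested, 3 were higher and 0 lower in FOXL2WT against Vectors, and 10 were higher and 1 lower in FOXL2C134W against Vectors, or 4 higher in DESeq2 with transcript length offsets. The median log2 fold change of the 17 was 0.01 in FOXL2WT against Vectors, where 9 were positive. It was 0.20 in FOXL2C134W against Vectors, where 13 were positive. Over all genes the medians were 0.00, with 50.9% and 51.1% positive. Without Vectors A the higher counts of the list were 2 and 9. In FOXL2C134W against FOXL2WT, 8 were higher and 1 lower, and the median log2 fold change was 0.11, beside -0.01 over all genes. The higher count was 4 with transcript or gene length offsets and 5 without FOXL2C134W B. The 3 with the lowest adjusted p were ASAP1, a GTPase-activating protein of focal adhesions, at 0.44 (SE 0.064, adjusted p = 0.000236), PTPN14, a phosphatase that binds YAP, at 0.34 (SE 0.064, adjusted p = 0.00193), and MYOF, a membrane repair protein, at 0.33 (SE 0.070, adjusted p = 0.00462). The call of PTPN14 was lost with transcript or gene length offsets and that of ASAP1 with transcript length offsets.

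Among 19 further MRTF and SRF targets of the cytoskeleton, 7 were higher and 2 lower in FOXL2WT against Vectors, 13 higher and 1 lower in FOXL2C134W against Vectors, and 6 higher and 1 lower in FOXL2C134W against FOXL2WT. Without Vectors A, 3 were higher and 1 lower in the first of these and 11 higher and 1 lower in the second. MYH9, the heavy chain of non-muscle myosin IIA, was at 1356, 1275 and 1285 CPM in Vectors, 1177, 1081 and 1146 CPM in FOXL2WT and 1687, 1946 and 1889 CPM in FOXL2C134W. With FOXO1 it was at 1299, 1402 and 1296 CPM beside FOXL2WT and at 1357, 1544 and 1453 CPM beside FOXL2C134W. Its difference between mutant and wild type was 0.70 on the log2 scale (SE 0.055, adjusted p = 5.5e-07), and the difference of the FOXO1 effects was -0.57 (SE 0.077, adjusted p = 0.0016), a call that DESeq2 with transcript length offsets did not make. FLNA, which crosslinks actin, was higher in the mutant than in the wild type by 0.47 (SE 0.045, adjusted p = 6.44e-06), and the smoothelin gene SMTN by 0.40, a call that was lost in DESeq2 with transcript length offsets. FLNA also passed the interaction test, at -0.35 (SE 0.064, adjusted p = 0.0108), and was called there in all 25 alternatives and left-out libraries.

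The 6 immediate early targets tested, SRF among them, are genes that SRF drives with the ternary complex factors. In FOXL2WT against Vectors 1 was higher and 0 lower, and in FOXL2C134W against Vectors 2 were higher and 1 lower. The median log2 fold changes were 0.14 and -0.11. Without Vectors A the counts were 0 and 0 in the first comparison and 2 higher and 1 lower in the second. In FOXL2C134W against FOXL2WT, 1 was higher and 2 were lower. EGR1 was higher, at 0.48, while JUNB was at -0.42 and FOSB at -1.07. FOSB and EGR1 were low, with FOSB at 2.37 CPM on average in FOXL2WT and 1.13 in FOXL2C134W, and EGR1 at 6.66 and 9.35 CPM. The call of EGR1 was lost without FOXL2WT B or FOXL2C134W C, and that of FOSB in DESeq2 and without FOXL2WT A or FOXL2C134W B. SRF itself averaged 53.8 CPM in Vectors and 68.9, 67.0, 65.8 and 66.0 CPM in the other conditions, and was higher than Vectors by 0.36 (adjusted p = 0.00729) in FOXL2WT and by 0.32 (adjusted p = 0.00657) in FOXL2C134W. Its call in FOXL2WT was lost without Vectors A. Of the 14 SRF pathway regulators tested, a list that includes SRF, 1 was higher and 1 lower in FOXL2WT against Vectors. In FOXL2C134W against Vectors 1 was higher and 0 lower. The median log2 fold changes were -0.04 and 0.08. Without Vectors A the counts were 0 and 0 in the first comparison and 2 higher and 0 lower in the second. In FOXL2C134W against FOXL2WT, 3 were higher and 0 lower, namely ROCK1 (0.37) and ROCK2 (0.40), kinases that raise actin tension, and MRTFA (0.28). MRTFA and ROCK2 were not called in DESeq2 with transcript length offsets. Among libraries left out, FOXL2WT A cost the call of MRTFA, FOXL2C134W C that of ROCK1, and FOXL2WT B, FOXL2WT C, FOXL2C134W B or FOXL2C134W C that of ROCK2.

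For the 21 Hippo pathway regulators, 1 was higher and 1 lower in FOXL2WT against Vectors, 4 were higher and 4 lower in FOXL2C134W against Vectors, and 2 were higher and 1 lower in FOXL2C134W against FOXL2WT. In the last of these the shares were 9.52% higher and 4.76% lower, near those of all genes. Without Vectors A the counts were 0 and 0 in the first comparison and 3 higher and 2 lower in the second. The 3 genes called between mutant and wild type were WWC1 at 0.24, AMOTL1 at 0.23 and VGLL4 at -0.17. WWC1 was at -0.14 with transcript length offsets, AMOTL1 lost its call in 7 of the 25 alternatives and left-out libraries, any one FOXL2WT library among them, and VGLL4 lost it in 10. YAP1 was called in none of the 9 comparisons. WWTR1, which encodes TAZ, averaged 127 CPM in Vectors and 109 and 112 CPM in FOXL2WT and FOXL2C134W, and was lower by 0.22 and 0.19 on the log2 scale, both called. Both calls were lost without Vectors A and in DESeq2 with transcript length offsets, the FOXL2WT call also without FOXL2WT B, and the FOXL2C134W call also without FOXL2C134W A. TEAD1 was higher than Vectors by 0.21 in FOXL2C134W, but not past the threshold without Vectors B or FOXL2C134W B. With transcript length offsets DESeq2 called 0 Hippo regulators higher in FOXL2C134W against Vectors, and without FOXL2C134W B edgeR called 1. In FOXL2WT + FOXO1 against FOXL2WT, edgeR called 0 genes in each of the 5 lists, and the 10 alternatives, DESeq2 among them, called at most 1 in a list. An unadjusted p under 0.05 was found there for 3 YAP and TAZ targets, 2 cytoskeletal targets, 2 immediate early targets, 3 Hippo regulators and 1 SRF regulator. The share of all genes under this rule was not counted, so these counts cannot be set against it.

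Adding FOXO1 beside the mutant, which came with the lower SMAD3 given above, gave calls in 2 of the lists. In FOXL2C134W + FOXO1 against FOXL2C134W, where 0.714% of all genes tested were called, the log2 fold change of ASAP1 was -0.30 (SE 0.063, adjusted p = 0.0321), that of MYH9 -0.34 (SE 0.055, adjusted p = 0.00998) and that of FLNA -0.23 (SE 0.045, adjusted p = 0.0229), and 0 genes were higher. All 3 calls were lost in DESeq2 with transcript length offsets and without FOXL2C134W B, FOXL2C134W C, FOXL2C134W + FOXO1 A or FOXL2C134W + FOXO1 C. The same 3 genes were those called in the interaction, where 1.38% of all genes were, with ASAP1 at -0.42 (SE 0.091, adjusted p = 0.0283), a call lost with transcript length offsets and without 6 of the 15 libraries. The 2 tests share their FOXL2C134W libraries. With FOXO1 in both arms, F3, the tissue factor gene and a YAP target, was the 1 gene of the lists that was called, higher in the mutant by 0.24 (SE 0.045, adjusted p = 0.0324), and the call was lost in a fit of the libraries compared and without 6 of the 15 libraries. F3 is named because it was the one call, after its value was seen.

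**Figure D5:**
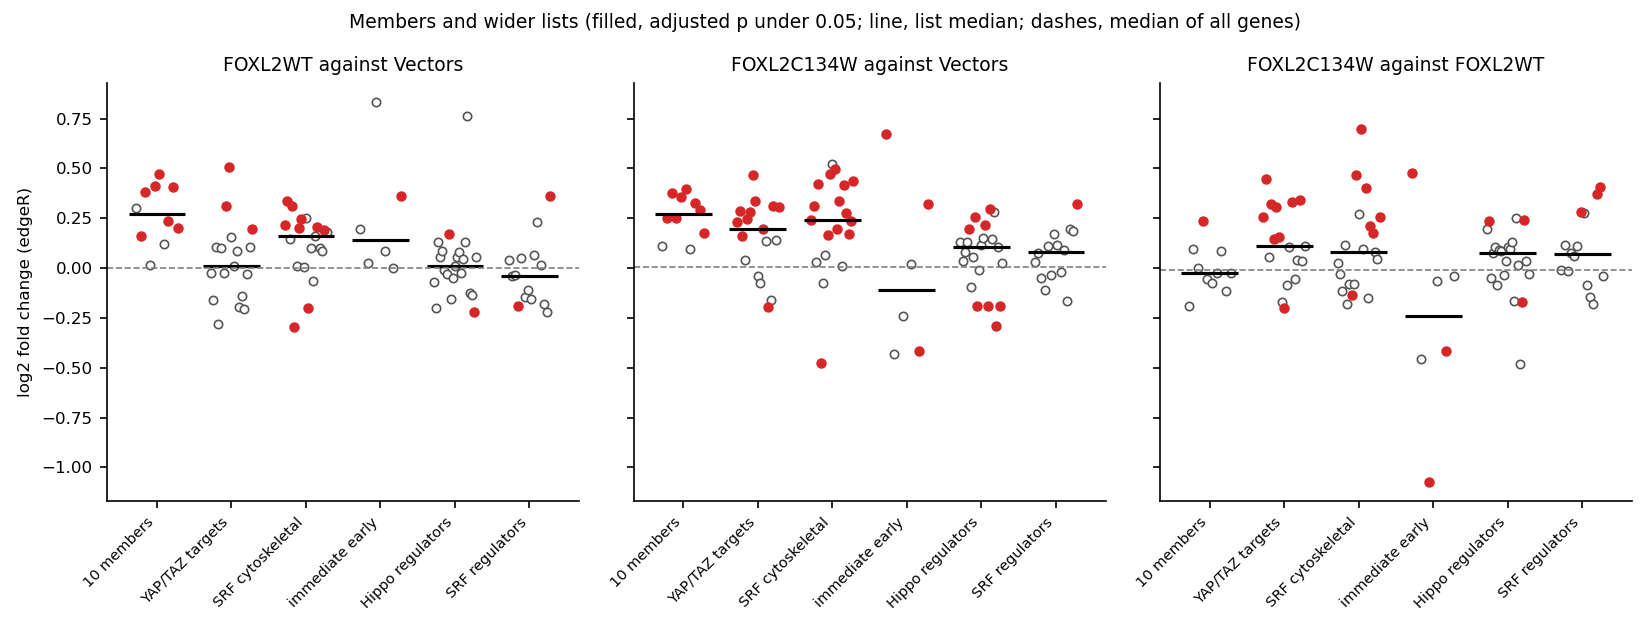
Log2 fold changes of the 10 members and of the genes of 5 wider lists in 3 comparisons without FOXO1. Filled points have an adjusted p under 0.05, lines give list medians and dashes the median of all genes. In FOXL2C134W against FOXL2WT, 8 YAP and TAZ targets and 6 cytoskeletal SRF targets are called higher, with MYH9 at 0.70.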

How the data were processed

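RNA-seq of 15 HGrC1 libraries (TruSeq stranded mRNA, 75 bp single-end reads) was quantified by the authors with Salmon 1.1.0 on hg38. The GENCODE release of their index was not given in the sources used here, and transcripts were annotated here with GENCODE 44. The deposited gene table holds estimated counts summed over transcripts to gene symbols and stored as whole numbers, and the deposited transcript tables give TPM and estimated counts. All columns were matched to samples by their labels. Reads outside the gene table made up 0.442% to 0.522% per library.

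The 10 members and all lists were chosen with earlier results of these data known. Estimated counts were tested with edgeR 4.0.16 in R 4.3.3 (filterByExpr, TMM, quasi-likelihood test with a term per condition over all 15 libraries, no replicate block), with Benjamini-Hochberg adjustment over 13868 genes and a threshold of 0.05. The study imported the Salmon output with tximport and compared pairs of conditions in DESeq2. The alternative closest to this was DESeq2 1.42.0 with transcript length offsets, fitted here to all 15 libraries. The others were DESeq2 on the gene counts, DESeq2 size factors in edgeR, filters of at least 1 count in any library or 10 in every library, fits to the libraries compared, a replicate block, gene length and GC content offsets, both of these block and length terms together, and dropping each of the 15 libraries in turn. Of 9 comparisons, 2 (the FOXO1 conditions against Vectors) were added after the values had been seen, and named genes of the wider lists were SRF, MRTFA, MRTFB, YAP1, WWTR1, TEAD1 and the 3 of each list with the lowest adjusted p in FOXL2C134W against FOXL2WT. Correlations used log2-CPM with a prior count of 2. No pair of replicates was a repeat of 1 library: the chi-square per degree of freedom between replicates was 2.21 to 8.84. The test scripts were checked on simulated data. Promoter windows were from RefSeq (GRCh38.p14), and gene positions are GRCh38.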

Additional observations from a re-analysis of the deposited data

How the results depend on the processing

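The direction of every called member was kept under the 10 alternatives and when each of the 15 libraries was left out. FOXL2WT against Vectors gave 5 to 8 called members, FOXL2C134W against Vectors 7 or 8, and FOXL2C134W + FOXO1 against Vectors 6 to 8. FOXL2WT + FOXO1 against Vectors gave 5 to 8 under the 10 alternatives and 4 to 7 when a library was left out. Leaving out a library gave 0 to 1 in FOXL2C134W against FOXL2WT. The latter count was 0 in DESeq2 with transcript length offsets and 2 in the replicate block with gene length offset, where MYL9 joined CALD1. FOXL2C134W + FOXO1 against FOXL2WT + FOXO1 had 2 with a filter of at least 1 count, under which 446 genes were called in all. Over the 10 alternatives and 9 comparisons the median log2 fold change of all genes moved by at most 0.012. The cause of these changes was not tested.

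Replicate letters did not pair the samples. Of 30 pairs of libraries with the same letter, 2 had deviations from the condition means that correlated over 0.1 (mean -0.0018, range -0.16 to 0.17), and 5 of 15 libraries were closest to their own letter. With the replicate block the counts of called members were 7, 8, 1, 0, 0, 0 and 0 in the comparisons of FOXL2WT and FOXL2C134W with Vectors, of the mutant with the wild type without and with FOXO1, of FOXO1 added to each, and for the interaction. They were 7 in both FOXO1 conditions against Vectors, where FOXL2C134W + FOXO1 lost AMOTL2 (adjusted p = 0.0501), and the block changed no other member call.

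Several uncalled log2 differences changed sign. For ANKRD1 in FOXL2C134W against FOXL2WT the value was 0.0045 with DESeq2 and with DESeq2 size factors, 0.0077 with transcript length offsets, 0.00060 and 0.0058 with the filters of 1 and 10 counts, 0.019 with the gene length offset alone or with the block, and 0.00086 with the GC content offset. In the same comparison CNN1 was at 0.040 with transcript length offsets, 0.049 with the gene length offset and 0.048 with the block as well, and TPM1 at 0.059 in these last fits. CALD1 in FOXL2WT + FOXO1 against FOXL2WT was at -0.00038 and -0.0024 with the gene length offset without and with the block. CCN1 in FOXL2C134W + FOXO1 against FOXL2C134W was at 0.0010 with transcript length offsets, 0.0023 with the filter of 1 count and 0.00046 with the GC content offset. For the interaction, AMOTL2 was at 0.0018 and 0.0028 with the gene length offset without and with the block, and CNN1 at 0.016 and MYL9 at 0.0024 with the GC content offset. Leaving out libraries gave ranges across 0 in FOXL2C134W against FOXL2WT for ANKRD1 (-0.014 to 0.013) and CNN1 (-0.11 to 0.029), in FOXL2C134W + FOXO1 against FOXL2WT + FOXO1 for MYL9 (-0.025 to 0.065), and in FOXL2WT + FOXO1 for CALD1 against FOXL2WT (-0.043 to 0.081) and against Vectors (-0.028 to 0.096). In FOXL2C134W + FOXO1 against FOXL2C134W they were CCN1 (-0.032 to 0.032), CCN2 (-0.0095 to 0.066), ACTA2 (-0.017 to 0.15), CNN1 (-0.015 to 0.12), MYL9 (-0.0034 to 0.11) and CALD1 (-0.10 to 0.0043), and for the interaction ACTA2 (-0.12 to 0.048), CNN1 (-0.091 to 0.050) and CALD1 (-0.12 to 0.0094).

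The counts behind the shares of all genes called moved more. FOXL2WT against Vectors called 842 genes, 305 without Vectors A and 1690 in a fit of the libraries compared. FOXL2C134W against Vectors called 2041, and 970 in DESeq2 with transcript length offsets. FOXL2C134W against FOXL2WT called 1560, and 764 with these offsets. With FOXO1 in both arms 20 genes were called, and 7 to 446 under the alternatives. Adding FOXO1 to FOXL2WT gave 7 (2 to 260), adding it to FOXL2C134W 99 (5 to 463), and the interaction 192 (45 to 551). Against Vectors, FOXL2WT + FOXO1 gave 524 (215 to 954) and FOXL2C134W + FOXO1 1294 (743 to 1789).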
